A study of Mus musculus with 10 samples.

Results

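The angiopoietin and TIE genes, with the matrix gene Svep1 and its receptor gene Itga9, were examined in macrophages sorted from 4T1 tumours. The 6 genes (Angpt1, Angpt2, Tek, Tie1, Svep1 and Itga9) were taken from a table of raw read counts for 46603 genes by exact match of the gene name, and each matched 1 row. 4T1 cells derive from a mammary carcinoma of the mouse and form tumours when grafted. Tumour cells were digested, and viable cells carrying CD11B and F4/80, surface proteins common to mouse macrophages, were sorted with or without podoplanin (PDPN). The podoplanin-positive fraction is called PoEMs and the negative fraction non-PoEMs, and each was sequenced from the same 5 tumours, numbered 1, 2, 4, 5 and 6, which gave 10 libraries. All libraries share the tumour model, the digestion, the CD11B and F4/80 gates and SMART-Seq pre-amplification, and the labels name no treatment. The sources used here do not give mouse strain, sex, age or the time after grafting. A sorted fraction is bulk RNA, so fewer cells of a type and less RNA per cell cannot be told apart. Tumours are numbered in the labels with no word on separate mice. The main test takes the 10 libraries as independent, so its p-values measure the spread between libraries of a fraction. The fit with the tumour as a block measures the spread of the difference within tumours. Both cover these tumours only.

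Angiopoietin 1 (ANGPT1) is the agonist ligand of the receptor tyrosine kinase TIE2, which Tek encodes, and angiopoietin 2 (ANGPT2) competes with it and can act as agonist or antagonist. TIE1, a related receptor with no established angiopoietin ligand of its own, modulates TIE2 signalling, and both receptors are best known from blood and lymphatic endothelium. TIE2 has also been described on a subset of tumour macrophages near vessels. SVEP1, also called polydom, is a large secreted matrix protein needed for lymphatic vessel remodelling, and it binds the integrin made of the alpha 9 chain (Itga9) and the beta 1 chain (Itgb1).

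The 10 libraries held between 12597829 and 15406722 counts, and 1 count corresponded to 0.0652 to 0.0782 CPM (counts divided by the TMM-scaled library total and multiplied by 1e6). Pdpn measured between 189.8 and 247.8 CPM in the 5 PoEM libraries and between 10.96 and 29.1 CPM in the 5 non-PoEM libraries, so the sort marker separated the groups. The summed level of 10 macrophage markers was 15749 to 17410 CPM in PoEM and 15705 to 17401 CPM in non-PoEM libraries. The summed level of 19 fibroblast markers was 315.9 to 521.5 CPM in PoEM and 35.5 to 50.003 CPM in non-PoEM libraries, and 15 of the 17 tested ones were higher and 0 lower. Of the macrophage markers 1 was higher (Itgam, 1384 against 1185 CPM, adjusted p = 0.0347 by edgeR). Another 1 was lower (Csf1r, 2405 against 2849 CPM, adjusted p = 0.0493). The fit with the tumour as a block called 3 macrophage markers higher and 3 lower. Of 7 tested tumour epithelial markers 0 were called, and of 5 tested eosinophil and 9 tested neutrophil markers 4 and 7 were lower and 0 and 1 higher. Of 8 tested monocyte markers 3 were lower, among them Ccr2, a chemokine receptor gene, at 423.7 ± 49.8 against 964 ± 140.1 CPM, and 1 (Fn1) was higher. Of 4 tested platelet and megakaryocyte markers 2 were higher (Pf4 2.39-fold and Ppbp 5.58-fold) and 1 (Itga2b) lower, and of 3 tested mural markers Acta2 was higher (2.51-fold) and 0 were lower. Of 14 blood endothelial markers, 6 (Emcn, Esam, Cldn5, Erg, Robo4 and Sox17) had fewer than 30 counts over all libraries. Of the 5 tested ones, 1 (Vwf) was higher and 0 lower, and the blocked fit called 2 higher (Vwf and Pecam1). Of 2 tested lymphatic endothelial markers 0 were called, and of 12 markers of perivascular and resident macrophages 1 was higher and 0 lower. The B and plasma cell list and the T and NK cell list had 1 tested marker each, which was lower, and the 1 tested mast cell and basophil marker was not called. The blocked fit called 1 epithelial marker higher (Cdh1) and 2 lower (Epcam and Krt8), beside 13.8% and 14.3% of all tested genes. It also called 1 mural marker (Rgs5) and the mast cell and basophil marker (Kit) lower. Of the monocyte and eosinophil markers it called 5 and 5 lower, and of the neutrophil markers 2 higher and 7 lower. Cdh5, which encodes VE-cadherin and was not called, measured 4.72 ± 1.28 CPM in PoEM and 5.04 ± 1.41 CPM in non-PoEM libraries. Pecam1 and Eng, which macrophages also express, made up most of the endothelial sum of 182.2 to 384.9 CPM in PoEM and 167.3 to 320.9 CPM in non-PoEM libraries.

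The window of 250 bases before the RefSeq start of Svep1 is shown, since Svep1 was the member with the largest difference. It comes from RefSeq (GRCm38.p6), whose promoter table held 4 of the 6 members, and is written on the strand of the gene at chr4:58206597-58206846 (minus strand). The protein-coding Svep1 transcript of the GENCODE M21 annotation starts next to this window, at base 58206596. The window still lies inside the gene as GENCODE draws it, because the first exons of 3 non-coding Svep1 transcripts reach into it, the outermost from base 58206859.

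Svep1: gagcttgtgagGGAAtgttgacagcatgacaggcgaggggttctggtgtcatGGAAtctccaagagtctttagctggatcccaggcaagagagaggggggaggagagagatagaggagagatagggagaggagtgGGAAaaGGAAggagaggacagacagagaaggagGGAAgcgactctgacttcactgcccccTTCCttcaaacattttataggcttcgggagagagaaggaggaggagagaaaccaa

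Capitals mark GGAA, the core letters of sites for ETS factors, read on both strands (GGAA or TTCC). The window had 6 matches, where 93.4% of 32851 promoter windows of this length had at least 1 and 8.69% at least 6. The letters TATAAA, read on both strands (TATAAA or TTTATA), occurred 1 time, and in 12.4% of all windows. Purines made up 69.2% of the window on the strand shown, and 0.569% of all windows had at least that share. These matches describe the letters only, and no binding was measured.

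Of the 6 members, Svep1 rose in PoEMs and no other passed the main test, which leaves out the pairing by tumour. With the tumour as a block Angpt2 and Itga9 also passed, but neither call held under every left-out tumour. With the block kept and 1 tumour left out, Angpt2 passed in 3 of 5 fits and Itga9 in 0 of 5. Itga9 was the most abundant and was high in both fractions. Angpt2 lay above its non-PoEM range in all 5 PoEM libraries but missed the threshold of the main test. Tie1 was low with overlapping ranges, and Tek and Angpt1 had at most 6 counts in any library. Filtering on low counts left 4 members (Angpt2, Tie1, Svep1 and Itga9) among 13595 tested genes. Of these, 1 was higher and 0 were lower (adjusted p under 0.05 in the quasi-likelihood test of edgeR), where 6.83% of all tested genes were higher and 6.77% lower, 13.6% in all. Without the filter on low counts edgeR called 2 members higher (Svep1 and Angpt2) and 0 lower, where 3.74% of 23973 genes were higher and 3.6% lower, 7.34% in all. At an unadjusted p under 0.05 the counts were 2 higher and 0 lower, beside 14.2% and 14% of all tested genes. DESeq2 called 2 higher and 0 lower, beside 8.23% and 8.92%. With the tumour as a block, edgeR called 3 higher (Svep1, Angpt2 and Itga9) and 0 lower, where 13.8% of all tested genes were higher and 14.3% lower, 28.2% in all. Mean levels are given ± SD over the 5 libraries of a group, and fold changes ± SE.

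**Figure D1:**
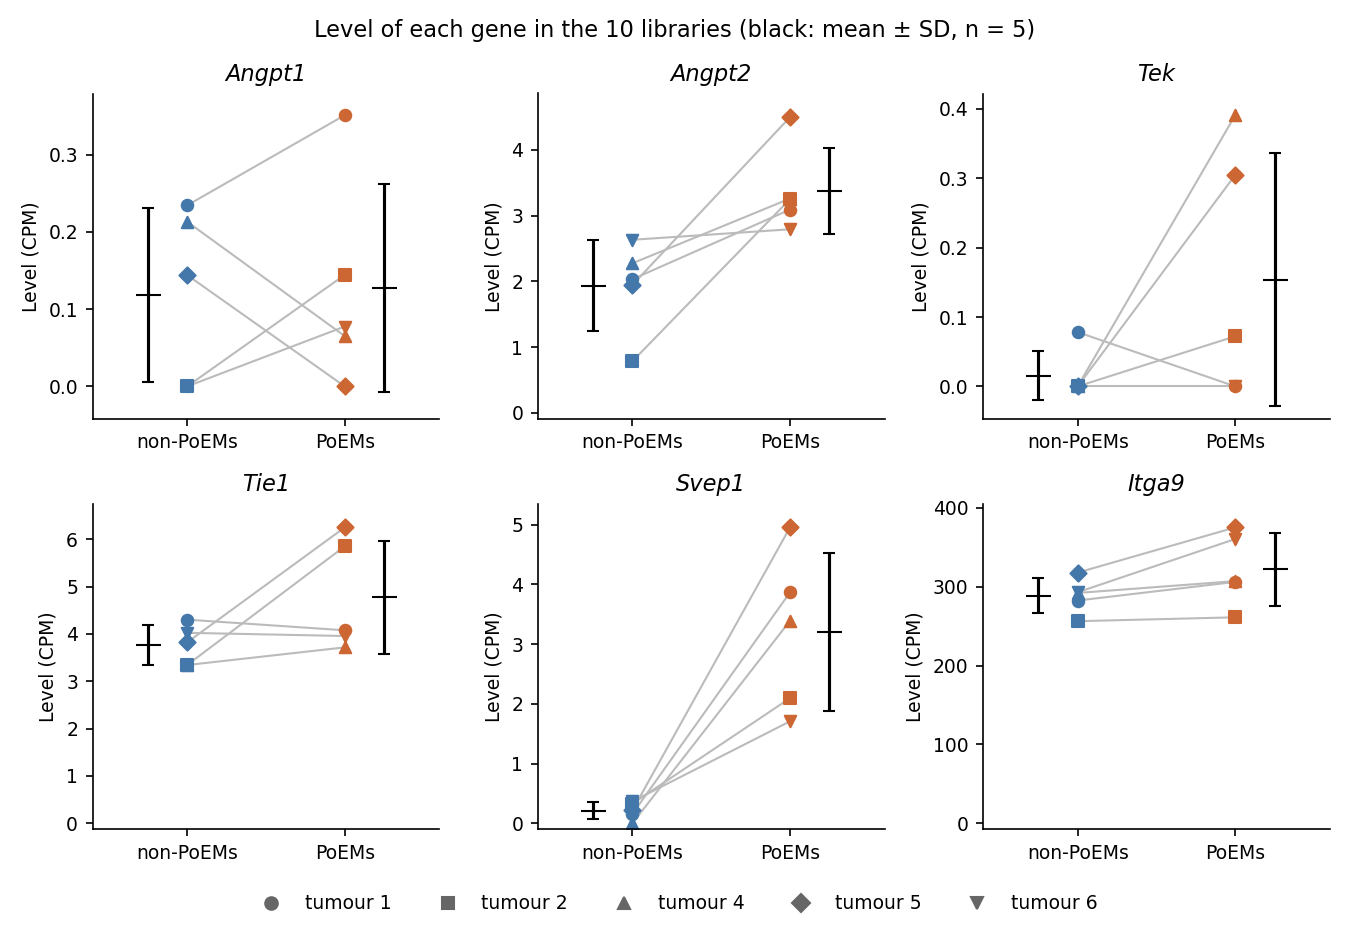
Level of each member in CPM (vertical axes, different scales) in the non-PoEM (blue) and PoEM (orange) libraries. Grey lines join libraries of the same tumour, symbols mark tumours, and black bars give the mean ± SD (n = 5). The groups do not overlap for Svep1 and Angpt2, and they overlap for the other 4 genes.

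Among the ligands, Angpt2 (ENSMUSG00000031465, minus strand of chromosome 8, bases 18690263 to 18741562 of GRCm38, a protein-coding gene) was detected in all 10 libraries. Angpt2 measured 3.09, 3.25, 3.26, 4.50 and 2.79 CPM in the PoEM libraries of tumours 1, 2, 4, 5 and 6, and 2.03, 0.786, 2.27, 1.95 and 2.63 CPM in the matching non-PoEM libraries. All PoEM values were above all non-PoEM values, a pattern that 5.38% of the tested genes showed and 5.13% showed the other way round, and the fractions were closest in tumour 6. The group means were 3.38 ± 0.653 and 1.93 ± 0.695 CPM, a fitted log2 fold change of 0.81 ± 0.26 (1.75-fold, adjusted p = 0.0574 by edgeR). With the tumour as a block, Angpt2 rose by 0.83 ± 0.23 on the log2 scale (adjusted p = 0.0180 by edgeR), and DESeq2 without the block gave an adjusted p of 0.0245. Within tumours the ratio of PoEM to non-PoEM level was 4.13 in tumour 2, 2.31 in tumour 5, 1.52 in tumour 1, 1.43 in tumour 4 and 1.06 in tumour 6. Without the non-PoEM library of tumour 6 the log2 fold change was 0.95 (adjusted p = 0.0372 by edgeR), and over the libraries left out one at a time the adjusted p ran from 0.0372 to 0.126. With the block kept, Angpt2 missed the threshold without tumour 2 (0.61, adjusted p = 0.0627 by edgeR) or tumour 5 (0.72, adjusted p = 0.0834) and passed without tumour 1, 4 or 6. Angpt2 overlaps Mcph1, which lies on the opposite strand. The exons of the 2 genes share 0 bases, and the sources used here do not say whether the counting used strand. Mcph1 itself measured 17.1 to 21.8 CPM in PoEM and 15.4 to 18.1 CPM in non-PoEM libraries.

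Angpt1 (ENSMUSG00000022309, chromosome 15, 42424723 to 42676977, minus strand) was close to the detection limit. Its counts were 5, 2, 1, 0 and 1 in the PoEM libraries of tumours 1, 2, 4, 5 and 6 and 3, 0, 3, 2 and 0 in the non-PoEM libraries. That makes 9 counts against 8, a ratio of 1.13 (95% exact interval 0.386 to 3.36, which covers counting error only). A library with 0 counts allows up to 0.197 to 0.229 CPM in the 3 libraries concerned, the value of 3 counts. The mean levels of 0.128 ± 0.135 and 0.118 ± 0.113 CPM were closer than their spread (exact permutation test, two-sided p = 0.952), so no difference was detectable at this depth.

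Among the receptors, Tek (ENSMUSG00000006386, chromosome 4, 94739289 to 94874976, plus strand), which encodes TIE2, was nearly absent from both fractions. Its counts were 0, 1, 6, 4 and 0 in the PoEM libraries of tumours 1, 2, 4, 5 and 6, and 1, 0, 0, 0 and 0 in the non-PoEM libraries. Of the 11 PoEM counts, 10 lay in tumours 4 and 5, and 6 of the 10 libraries had 0 counts. The ratio of summed counts was 11.03 (95% exact interval 1.604 to 475), an interval that covers counting error only and not the spread between libraries. Over libraries the means of 0.154 ± 0.182 and 0.0156 ± 0.0350 CPM did not separate (exact permutation test, two-sided p = 0.286, paired by tumour p = 0.375). In the edgeR fit with no filter on low counts, Tek had an unadjusted p of 0.0250 and an adjusted p of 0.178. The smallest values these exact tests can give are 0.00794 over libraries and 0.0625 over pairs.

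Tie1 (ENSMUSG00000033191, chromosome 4, 118471191 to 118490061, minus strand) was low but present in every library. Tie1 measured 4.08, 5.85, 3.71, 6.25 and 3.95 CPM in the PoEM libraries of tumours 1, 2, 4, 5 and 6, and 4.30, 3.34, 3.34, 3.82 and 4.02 CPM in the non-PoEM libraries. Only the PoEM libraries of tumours 2 and 5 lay above the non-PoEM range, and the PoEM level was higher in 3 of 5 tumours. The means were 4.77 ± 1.18 and 3.77 ± 0.422 CPM, with a log2 fold change of 0.34 ± 0.18 (adjusted p = 0.228 by edgeR, and 0.152 with the tumour as a block). The same 2 tumours had the largest PoEM to non-PoEM ratios of Angpt2.

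Svep1 (ENSMUSG00000028369, chromosome 4, 58042442 to 58206859, minus strand, protein-coding) was the member with the largest difference. Svep1 had 55, 29, 52, 65 and 22 counts in the PoEM libraries of tumours 1, 2, 4, 5 and 6, against 2, 5, 0, 3 and 5 in the matching non-PoEM libraries. In CPM these were 3.86, 2.09, 3.39, 4.95 and 1.71 in PoEM and 0.156, 0.328, 0, 0.216 and 0.366 in non-PoEM libraries. Every PoEM library was above every non-PoEM library, and tumours 2 and 6 had both the lowest PoEM and the highest non-PoEM levels. The fitted log2 fold change was 3.84 ± 0.46 (14.3-fold, adjusted p = 2e-04 by edgeR). It stayed between 3.52 and 4.10 when any 1 library was left out, with an adjusted p of at most 0.00104. Within tumours the ratio was 24.7 in tumour 1, 22.9 in tumour 5, 6.39 in tumour 2 and 4.67 in tumour 6, and it has no value in tumour 4, whose non-PoEM library had 0 counts (up to 0.213 CPM). The exons of Svep1 share 2244 bases with Gm26889 on the opposite strand, which had 0 counts in all libraries.

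Fibroblast collagen genes rose in the same libraries as Svep1, Col1a1 by 3.95 and Col1a2 by 4.03 on the log2 scale (adjusted p = 3.04e-06 and 2.9e-08 by edgeR). Col1a1, which encodes a chain of type I collagen, measured 152.5, 95.2, 109.4, 114.8 and 137.7 CPM in the PoEM libraries of tumours 1, 2, 4, 5 and 6, and 8.76, 7.67, 4.05, 9.37 and 9.73 CPM in the non-PoEM libraries. Per 1000 reads of Col1a1 there were 26.4 reads of Svep1 over all PoEM libraries and 27.3 over all non-PoEM libraries. Per 1000 reads of Col1a2, the partner chain, the values were 40.3 and 44.2. By library the Svep1 reads per 1000 reads of Col1a1 ran from 12.4 (tumour 6) to 43.1 (tumour 5) in PoEMs and from 0 (tumour 4) to 42.7 (tumour 2) in non-PoEMs, so the ranges overlapped. Among the PoEM libraries alone the order was not shared: tumour 6 had the lowest Svep1 and the second highest Col1a1 level. Other markers of the fibroblast list rose by unlike amounts, Col3a1 16.5-fold, Dcn 7.99-fold, Pdgfra 3.16-fold and Pdgfrb 1.84-fold. Svep1 reads were set against Col1a1 and Col1a2 only, so the near-equal values do not extend to the whole list. Fap and Twist1, which are also on the fibroblast list, had log2 fold changes of -0.12 ± 0.39 and -0.08 ± 0.23 (adjusted p = 0.880 and 0.867 by edgeR). The part of fibroblast RNA in the Svep1 difference was not tested.

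**Figure D2:**
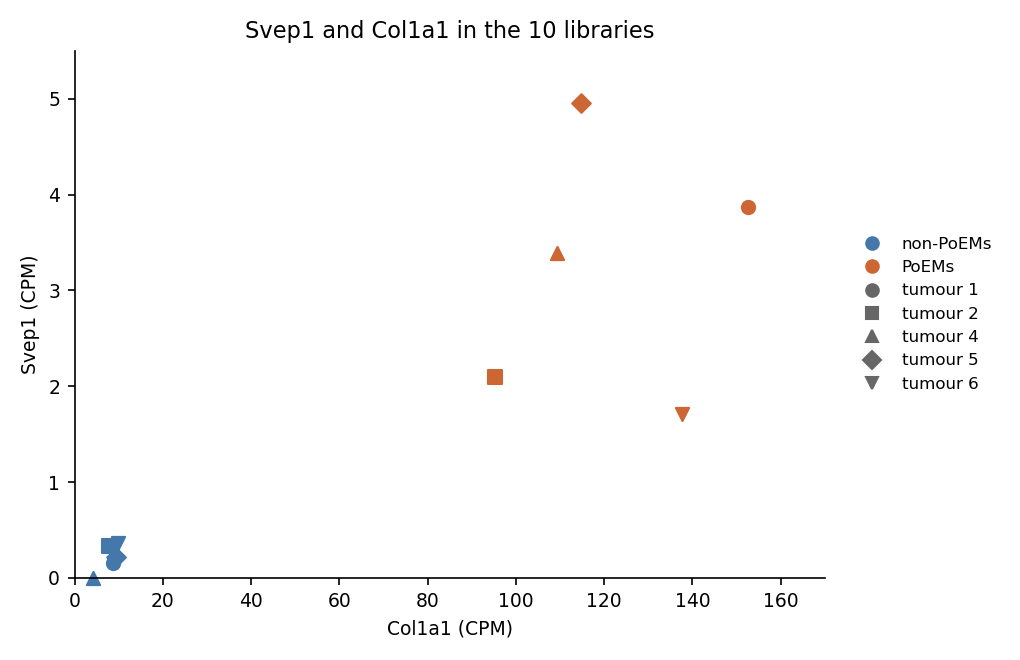
Svep1 level (vertical axis, CPM) against Col1a1 level (horizontal axis, CPM) in each library, with non-PoEMs in blue, PoEMs in orange and 1 symbol per tumour. The 5 non-PoEM libraries lie below 10 CPM of Col1a1 and 0.4 CPM of Svep1, and the 5 PoEM libraries lie above 95 CPM and 1.7 CPM.

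Itga9 (ENSMUSG00000039115, chromosome 9, 118606690 to 118901003, plus strand, protein-coding) was abundant in both fractions. Itga9 measured 306.1, 261.2, 307.1, 375.2 and 360.5 CPM in the PoEM libraries of tumours 1, 2, 4, 5 and 6, and 282.5, 256.2, 292.1, 317.9 and 292.9 CPM in the non-PoEM libraries. The groups overlapped, but the PoEM library was higher in 5 of 5 tumours, as it was for 17.4% of the tested genes. The means were 322.0 ± 46.1 and 288.3 ± 22.2 CPM, a log2 fold change of 0.16 ± 0.10 (1.12-fold, adjusted p = 0.302 by edgeR). With the tumour as a block Itga9 passed the threshold at a log2 fold change of 0.15 ± 0.05 (adjusted p = 0.0394 by edgeR), but leaving out any 1 of the 5 tumours with the block kept gave adjusted p values between 0.0504 and 0.144.

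Levels of different genes were compared per kilobase of annotated exon. In PoEM libraries Itga9 stood at 41.9 ± 5.99 CPM per kilobase, followed by Tie1 at 0.970 ± 0.241 and Angpt2 at 0.915 ± 0.177, which lay within their spread. Svep1 came next at 0.199 ± 0.0821 CPM per kilobase, then Tek at 0.0326 ± 0.0387 and Angpt1 at 0.0245 ± 0.0260, again within their spread. In non-PoEM libraries the order was Itga9 (37.5 ± 2.89), Tie1 (0.766 ± 0.0859), Angpt2 (0.524 ± 0.188), Angpt1 (0.0227 ± 0.0217), Svep1 (0.0132 ± 0.00905) and Tek (0.00332 ± 0.00742 CPM per kilobase). There the levels of Angpt1, Svep1 and Tek lay within their spread of one another. Itgb1, the partner chain of alpha 9, measured 154.5 and 149.5 CPM per kilobase in PoEM and non-PoEM libraries, and Itga4, the closest relative of Itga9 among the alpha chains, 11.5 and 15.4.

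**Figure D3:**
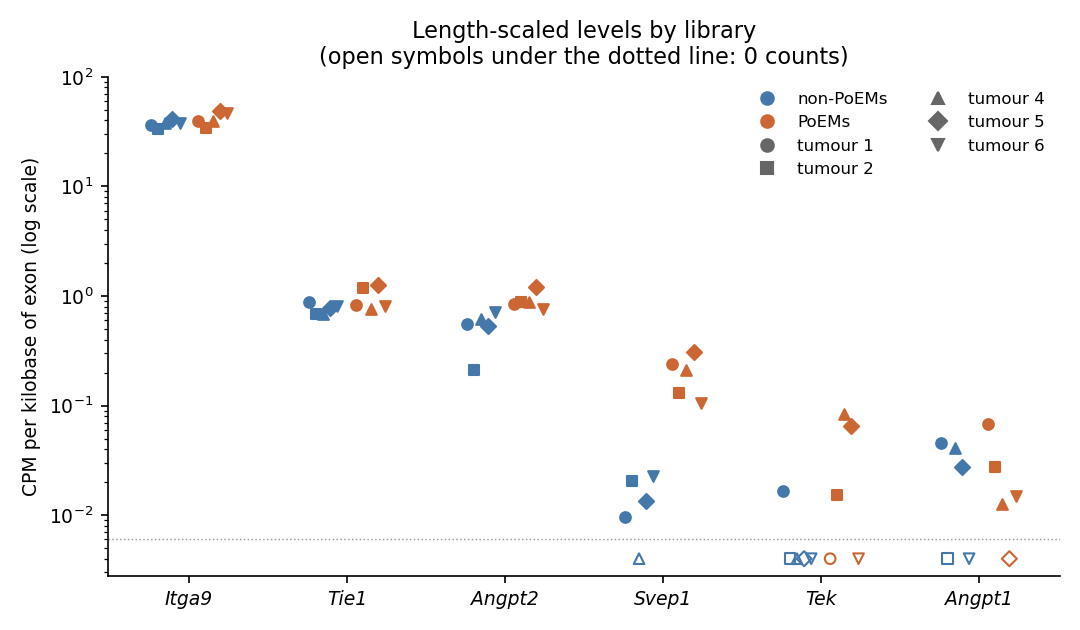
CPM per kilobase of exon (log scale) of the 6 members in each library, with non-PoEMs in blue, PoEMs in orange and 1 symbol per tumour. Itga9 lies above 30 in every library, Tie1 and Angpt2 between 0.2 and 1.3, and open symbols under the dotted line are libraries with 0 counts, drawn at an arbitrary height.

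Among the partners of the alpha 9 integrin, the matrix ligand genes Tnc, Fn1 and Spp1 were higher in PoEMs, and Vcam1, Thbs1 and Adam15 were not called. Of the 21 genes listed as partners and ligands, which include Svep1 and Itga9, 17 were tested, 6 were higher and 1 lower (edgeR, beside 6.83% and 6.77% of all tested genes), with a median log2 fold change of 0.16 beside 0.01 over all tested genes. The higher ones were Svep1, Tnc, Fn1, Spp1, Adam8 and Vwf. This list was chosen with earlier results of these data known, so its counts are a description only. Tnc, which encodes the matrix glycoprotein tenascin C, measured 17.9 to 35.8 CPM in PoEM and 1.78 to 3.82 CPM in non-PoEM libraries, a log2 fold change of 3.19 ± 0.24 (adjusted p = 1.67e-05 by edgeR). Fn1, which encodes fibronectin, was among the most abundant, at 14235 ± 2487 against 7091 ± 1568 CPM (adjusted p = 0.00153 by edgeR). Adam8, a membrane protease with a disintegrin domain, rose from 360.3 ± 71.0 to 926 ± 173 CPM (adjusted p = 0.000178 by edgeR).

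Spp1, which encodes osteopontin, measured 3462, 4041, 2761, 2999 and 4799 CPM in the PoEM libraries of tumours 1, 2, 4, 5 and 6, all above the non-PoEM range of 702.7 to 2551 CPM. Its log2 fold change was 1.26 ± 0.32 (adjusted p = 0.0304 by edgeR), and it missed the threshold without the PoEM library of tumour 1, 2 or 6 or the non-PoEM library of tumour 2 or 4 (adjusted p up to 0.0775). Spp1 also missed it with no filter on low counts (adjusted p = 0.0771 by edgeR) and without tumour 1, 2 or 4 (adjusted p up to 0.129). Vwf, which encodes von Willebrand factor and is also an endothelial marker, rose by 0.72 ± 0.16 on the log2 scale (adjusted p = 0.0114 by edgeR), at 3.76 ± 0.325 against 2.28 ± 0.427 CPM. Without tumour 2 or tumour 4 its adjusted p was 0.0581 or 0.0601. Pxn, which encodes the adaptor paxillin, had a log2 fold change of -0.38 ± 0.08 and fell in all 5 tumours (adjusted p = 0.00637 by edgeR). The share of all tested genes lower in all 5 tumours was not counted, and 17.4% were higher in all 5. Itga4 had a log2 fold change of -0.41 ± 0.13 (adjusted p = 0.0546 by edgeR), and with the tumour as a block it fell (adjusted p = 0.000127). Emilin1 and Tgm2, further ligand genes, had log2 fold changes of 0.22 ± 0.07 and 0.43 ± 0.17 (adjusted p = 0.0565 and 0.128 by edgeR), and both rose with the block (adjusted p = 0.00164 and 0.000109). Itgb1 had a log2 fold change of 0.05 ± 0.07 (adjusted p = 0.696 by edgeR). Vcam1, Thbs1 and Adam15, also on the list, had log2 fold changes of 0.05 ± 0.14, -0.07 ± 0.15 and 0.12 ± 0.09. They were not called (adjusted p = 0.854, 0.805 and 0.435 by edgeR). Below the filter, Vegfc and Vegfd, which encode lymphatic growth factors, had 14 and 32 counts in PoEMs against 64 and 4 in non-PoEMs. Adam12, also below the filter, had 86 counts in PoEMs against 22 in non-PoEMs. In the edgeR fit with no filter Vegfc was called lower (adjusted p = 0.0124) and Adam12 higher (adjusted p = 0.00426). Vegfd was not called there (adjusted p = 0.0540). That fit called 3.74% of all its genes higher and 3.6% lower. With the block 9 genes of this list were higher and 2 lower, beside 13.8% and 14.3% of all tested genes. Tnc and Fn1 are matrix genes that fibroblasts also express, and the fibroblast marker values given above moved in the same libraries. Fn1 is also on the monocyte list, Vwf is also a platelet gene, and Itga4 is also expressed by monocytes and eosinophils, whose marker values are given above. The part of these cells in the differences was not tested.

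How many of the genes that act with or downstream of TIE2 were called depended on the fit. Of 25 listed genes of the pathway, with Angpt1, Angpt2, Tek and Tie1 among them, 17 were tested, 0 were higher and 2 lower (edgeR, beside 6.83% and 6.77% of all tested genes), and the median log2 fold change was -0.06. At an unadjusted p under 0.05 there were 2 higher and 2 lower (beside 14.2% and 14%). DESeq2 called 1 higher and 2 lower (beside 8.23% and 8.92%), and edgeR with the tumour as a block 2 higher and 5 lower (beside 13.8% and 14.3%). Akt2, a kinase gene downstream of TIE2, was lower in all 5 tumours and fell from 46.1 ± 4.28 to 37.7 ± 2.18 CPM (adjusted p = 0.0170 by edgeR, 0.0892 without tumour 2 and 0.0624 without tumour 4). Adam17, a sheddase gene, fell from 316.8 ± 21.6 to 273.2 ± 13.1 CPM (adjusted p = 0.0402 by edgeR), and missed the threshold without any 1 of 8 libraries, all but the non-PoEM libraries of tumours 1 and 6 (adjusted p up to 0.1004). Mmp14, a membrane protease gene, stood at 661 ± 47.7 against 566.8 ± 62.3 CPM (adjusted p = 0.0966 by edgeR, and 0.00578 with the block). Tnip2, which encodes an adaptor that binds TIE2, and Grb2, a general adaptor gene, had log2 fold changes of -0.18 ± 0.09 and -0.12 ± 0.06 (adjusted p = 0.212 and 0.2403 by edgeR). With the block Tnip2 fell (adjusted p = 0.0158 by edgeR), and it was lower in all 5 tumours. For Akt2 and Tnip2, as for Pxn, the share of all tested genes with this pattern was not counted. Ptprb, which encodes the endothelial phosphatase VE-PTP that acts on TIE2, lay below the filter with 67 counts over all libraries. Angpt4, the third angiopoietin gene, had 3 counts over all libraries.

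**Figure D4:**
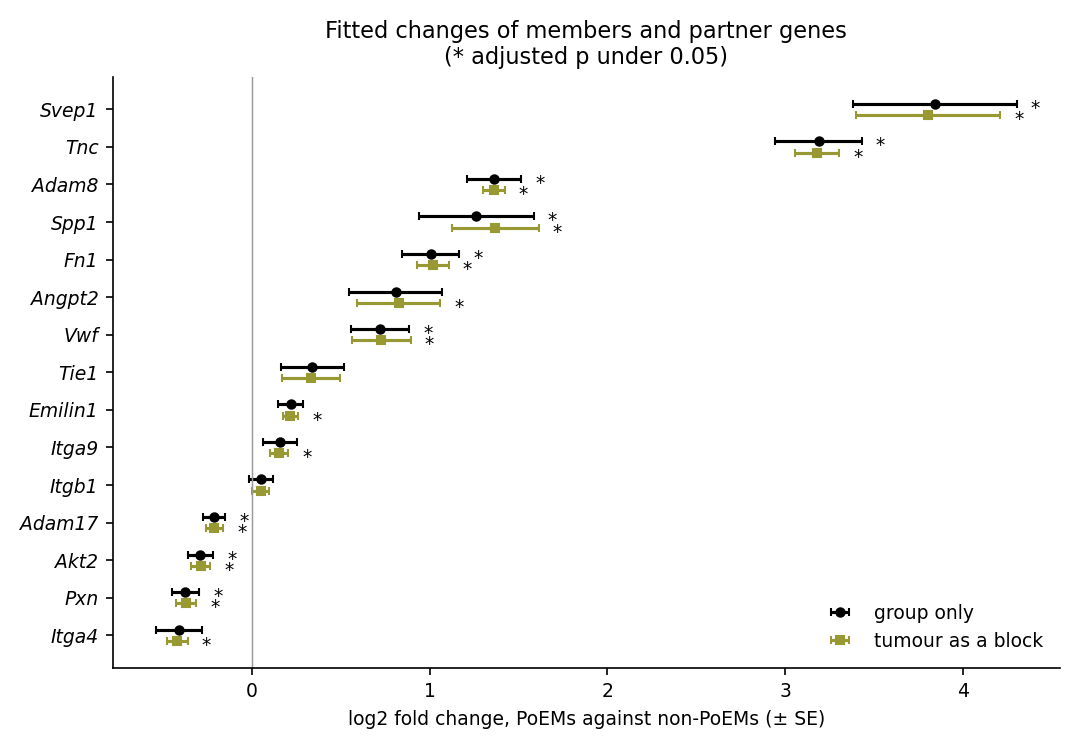
Fitted log2 fold change of PoEMs against non-PoEMs (horizontal axis, ± SE) for the tested members and for partner genes named in the text, from the fit with group only (black circles) and with the tumour as a block (olive squares). Stars mark an adjusted p under 0.05. Svep1 lies at 3.84 and Tnc at 3.19, and Angpt2 and Itga9 carry a star with the block only.

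The angiopoietin-like genes, secreted relatives that do not bind TIE receptors, were measured as a separate group. Of 7 listed, 4 were tested, with 0 higher and 0 lower (edgeR, beside 6.83% and 6.77% of all tested genes). At an unadjusted p under 0.05, 1 was higher and 0 lower (beside 14.2% and 14%). DESeq2 called 0 higher and 0 lower (beside 8.23% and 8.92%). Angptl6 measured 1.94 ± 0.227 against 1.38 ± 0.151 CPM (adjusted p = 0.0830 by edgeR). Its groups did not overlap, as for 5.38% of the tested genes in this direction. Angptl2 had a log2 fold change of 0.62 ± 0.29 (adjusted p = 0.1903 by edgeR) and rose in the blocked fit (adjusted p = 0.00399). The blocked fit called 1 of the group higher and 0 lower (beside 13.8% and 14.3%). Angptl7 and Angptl4 had log2 fold changes of 0.20 ± 0.28 and 0.09 ± 0.28 (adjusted p = 0.693 and 0.874 by edgeR).

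The tested genes whose log2 CPM followed each member most closely over the 10 libraries are given as a description, since libraries of a tumour share their source and the groups differ. For Svep1 they were Prelp and Tnxb, which encode matrix proteins, Loxl1, a collagen cross-linking enzyme gene, and Aldoart2 and RP23-234F9.2, with Pearson r between 0.974 and 0.984. After each fraction's mean was removed, their r with Svep1 was between 0.764 and 0.879. Col1a1 had r = 0.955 with Svep1 over the 10 libraries and 0.41 within fractions. For Col1a2 these values were 0.964 and 0.66, and for Pdpn they were 0.912 and -0.22. Aldoart2 is a retrogene copy of Aldoa, so its reads may be shared with the parent gene. For Angpt2 the closest genes were Metap2, Ndufaf3, Krtcap2, Zfp948 and Slc12a5 (r between 0.914 and 0.938), and its r with Col1a1 was 0.695 over the libraries and -0.10 within fractions. For Tie1 they were Edil3, Grpel2, Gm6685, Rnf217 and Agpat9 (r between 0.849 and 0.858). For Itga9 they were Nhlrc3, Ttc7b, Micall1, Socs6 and Ube2q2 (r between 0.931 and 0.961), and between 0.917 and 0.953 within fractions.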

How the data were processed

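RNA of 10 sorted libraries was measured. The authors deposited raw read counts per gene in 1 table; featureCounts 1.5.3, STAR 2.5.2b, cutadapt 1.15 and Bowtie2 2.3.3.1 are named in the submitters' processing notes. The sources used here do not give their settings, the genome build, the annotation or the handling of strand and multi-mapping reads. Counts are of reads and not of molecules.

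Columns were matched to samples by title. The main test of the deposited counts was that of edgeR 4.0.16 (R 4.3.3): filterByExpr by group (minimum count 10, minimum total 15), TMM, robust quasi-likelihood fit with group as the only term, Benjamini-Hochberg adjustment over all 13595 tested genes, called under 0.05. The SE is the absolute log2 fold change divided by the square root of F. The common biological coefficient of variation was 13.3%. CPM use TMM-scaled totals. Angpt1 and Tek, below the filter, were tested by exact permutation over the libraries, two-sided and unadjusted. The fits were tested on simulated data with known changes.

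Libraries of the same tumour are paired by the labels; deviations from the group means correlated between 0.249 and 0.528 within the 5 tumours and between -0.36 and 0.109 across tumours. Every pair of libraries in a group differed by more than sampling noise (chi-square per gene at least 7.08).

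Exon lengths and positions come from the GENCODE M21 annotation of GRCm38, which held 46005 of the identifiers; that build is not stated for the counts. Likeness was Pearson's r of log2(CPM + 0.5) over tested genes averaging 0 or more in log2 CPM. Alternatives were RLE size factors, library size alone, no filter, DESeq2 1.42.0, the tumour block, a prior count of 2 and left-out libraries or tumours; the block with a left-out tumour was added after seeing the data.

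The members and lists were chosen with earlier results of these data known. Named were the members, the called genes of each pathway list and up to 4 more by lowest p, Pdpn, Csf1r, Adgre1, Col1a1, Col1a2 and the 5 genes most like each tested member. Itgb1, Ptprb, Angpt4, Mcph1, Vegfc, Vegfd, Vcam1, Thbs1, Adam12, Adam15, Fap, Twist1, Ccr2, Pf4, Ppbp, Itga2b, Acta2, Itgam and the endothelial markers were named after their values were seen. So were Col3a1, Dcn, Pdgfra, Pdgfrb, Cdh1, Epcam, Krt8, Rgs5 and Kit.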

Additional observations from a re-analysis of the deposited data

Results flagged for a closer look

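In 45 genes of the report, each group of 5 libraries was checked for 1 library far from the others, and 6 of 90 groups held one, where chance gives about 1 in 20. Angpt2 in PoEMs was highest in tumour 5, at 4.50 CPM, with the next library at 3.26 CPM. Tek in non-PoEMs was above 0 in tumour 1 alone, at 0.0782 CPM, which is a single count. The other 4 were the PoEM library of tumour 6, which also had the lowest Svep1 level among PoEMs. It was highest for Csf1r at 2801 CPM (next 2383), for Adgre1 at 650.1 CPM (next 520.9), for Akt1 at 373.1 CPM (next 331.8) and for Angptl7 at 4.26 CPM (next 2.29).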

How the results depend on the processing

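Svep1 was called higher under every alternative run, at log2 fold changes between 3.22 and 4.26, and Tie1 under none. With no filter, DESeq2, the replicate block by tumour, and DESeq2 with that block, in this order, the members called higher numbered 2, 2, 3 and 2, against 1 in the group-only edgeR fit. In the same order, Angpt2 passed the threshold at log2 fold changes of 0.81, 0.80, 0.83 and 0.85, the TIE pathway genes called higher numbered 1, 1, 2 and 2, and the alpha 9 genes called lower 2, 2, 2 and 2. The TIE pathway genes called lower numbered 1 with library size alone, 1 with no filter and 5 with the replicate block. With the block, alone or in DESeq2, 1 angiopoietin-like gene was called higher, and Itga9 was called at 0.15 with the block in edgeR alone.

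Leaving out 1 library or 1 tumour, with or without the block, gave 1 to 2 members called higher, 0 to 2 TIE pathway genes higher and 0 to 5 lower, 1 to 2 alpha 9 genes lower and 0 to 1 angiopoietin-like genes higher. The alpha 9 genes called higher ran from 4 to 9, against 6 in the group-only edgeR fit. Angpt2 ran from 0.60 to 1.019 on the log2 scale. The block with a tumour left out was chosen after seeing the data. The Angpt1 difference ran from -0.0466 to 0.0412 CPM and was below 0 without the PoEM library of tumour 1 (-0.0466) or the non-PoEM library of tumour 2 (-0.0203) or 6 (-0.0203). The fits differ in the samples, the genes or the model used, and the cause of these changes was not tested. Depth limits Angpt1 and Tek, with at most 6 counts per library.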
